A study of Mus musculus with 24 samples.

Results

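Spinal cords of wild-type mice that had received myelin-reactive Th17 cells were compared with spinal cords of naive wild-type mice. The comparison used 10 of the 24 arrays of the series, chosen by their sample titles, 5 of each kind, and covered 17097 genes. The Th17 cells came from lymph nodes and, by the methods, spleens of mice immunized 10 days earlier with a peptide of myelin oligodendrocyte glycoprotein (MOG), and were cultured for 5 days with 25 µg/ml of the peptide and 20 ng/ml of IL-23. Mice of every group were 8 to 12 weeks old. Wild-type recipients were irradiated with 500 rad, and 4 h later each was injected with 30000000 of these Th17 cells. Their cords were collected 12 days after transfer, which the labels call the onset of symptoms and the study the peak of disease. Naive wild-type mice were left unchallenged, with neither irradiation nor cells, so that the radiation, the transferred cells and the disease cannot be told apart in this comparison. The labels say wild type for both groups, although a heat map of the study names Act1+/- mice. Where the text turns to Act1 ko mice, these lack the adaptor of the IL-17 receptor, and 4 of them had received Th17 cells by the same protocol while 5 were naive. A last group, 5 wild-type recipients of Th1 cells, had cells cultured with IL-12 and an antibody against IL-23 in place of IL-23.

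Experimental autoimmune encephalomyelitis (EAE) is a model of multiple sclerosis in which T cells that recognize a myelin antigen enter the central nervous system, recruit monocytes and neutrophils, and damage myelin and axons. In the transfer form, the T cells are activated in a donor and injected, so that the recipient is never immunized. Th17 cells are helper T cells named for IL-17, a cytokine that acts through Act1 on astrocytes, oligodendrocyte progenitor cells (OPCs) and vessels, and induces chemokines, acute phase proteins and feedback inhibitors.

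Each array held RNA of the spinal cord of 1 mouse, read by probe sets of short oligonucleotides and given as log2 expression values. In such tissue RNA, fewer cells of a type and less RNA per cell cannot be told apart. Array medians over all probe sets lay between 3.46 and 3.57. Values below 3.52, the median of these, were taken as near background. The naive mean lay below this level for 6703 genes and both means for 5897. Arrays of 1 group correlated at 0.9902 to 0.9964 among Th17 recipients and at 0.9933 to 0.9966 among naive mice, and arrays of different groups at 0.9151 to 0.9259. On the first principal component, with 89.1% of the variance, the recipients lay at 55.4 to 63.8 and the naive mice at −59.6 to −58.1. The 3′ minus 5′ difference of the control probe sets for Actb, a measure of RNA integrity, was 0.62 to 0.80 in naive mice and 0.30 to 0.62 in recipients, and that for Gapdh was −0.03 to 0.26 and 0.05 to 0.25. Any part of this in the results was not tested.

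The question was which genes of the spinal cord differ between Th17 recipients and naive mice, and by how much. At an adjusted p under 0.05 in limma, 3069 genes were higher in recipients (18.0% of those tested) and 4367 were lower (25.5%). As deposited, increases were fewer but larger. Of the higher genes, 1251 differed by at least 2-fold (7.32%), and of the lower genes 398 did (2.33%). A log2 difference of 2 or more was seen in 651 higher genes and one of −2 or less in 12 lower genes. The increases reached 8.97 on the log2 scale and the decreases −2.81. The 5 recipients and the 5 naive mice did not overlap in 5984 genes (35.0%), among them 1648 of the 1649 genes that changed by at least 2-fold. For a gene without overlap the two-sided exact permutation p is 0.00794, the smallest that 5 mice against 5 can give. The median SD between mice was 0.13 in the naive group and 0.15 among recipients.

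The balance of increases and decreases depended on the scale of the arrays. As deposited, 41.3% of the calls were increases and the median difference of all genes was −0.05. The median over the 17097 genes, unlike that over all probe sets, was 4.58 to 4.65 in naive mice and 4.84 to 4.91 in recipients. Each centring below subtracts 1 value from every gene of an array, and so lowers all genes of recipients relative to naive mice. Centred on this gene median, 2124 genes were higher and 11213 lower (15.9% increases, median −0.31). With quantile normalization, 2726 were higher and 5596 lower (32.8%, median −0.09). Centred on ribosomal protein genes, 1623 were higher and 13501 lower (10.7%, median −0.51), and centred on housekeeping genes 1991 and 11422 (14.8%, median −0.34). The mean of the 14 housekeeping genes went from 9.59 in naive mice to 9.88 in recipients. Their median difference was only −0.02, and 1 of them rose by 3.81, so this centring leans on 1 gene. The balance of 2-fold changes turned as well. It was 1142 higher to 623 lower with quantile normalization, but 1019 to 1167 centred on gene medians, 885 to 2293 on ribosomal protein genes and 999 to 1338 on housekeeping genes. Small differences given below, in either direction, are to be read against these medians. The difference also varied with the level in naive cords. In the fifth of genes with the lowest naive means the median difference was 0.00, with 359 genes higher and 18 lower. In the fifth with the highest naive means, from 7.45 upwards, it was −0.28, with 507 genes higher and 1816 lower. Of the genes that rose by at least 2-fold, 535 had a naive mean near background. For these, and for falls to that level, the fold change is a bound, taken from the brighter mean against 3.52 and written as "at least". A log2 difference printed for such a gene is that of the fitted values and depends on its background level.

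**Figure D1:**
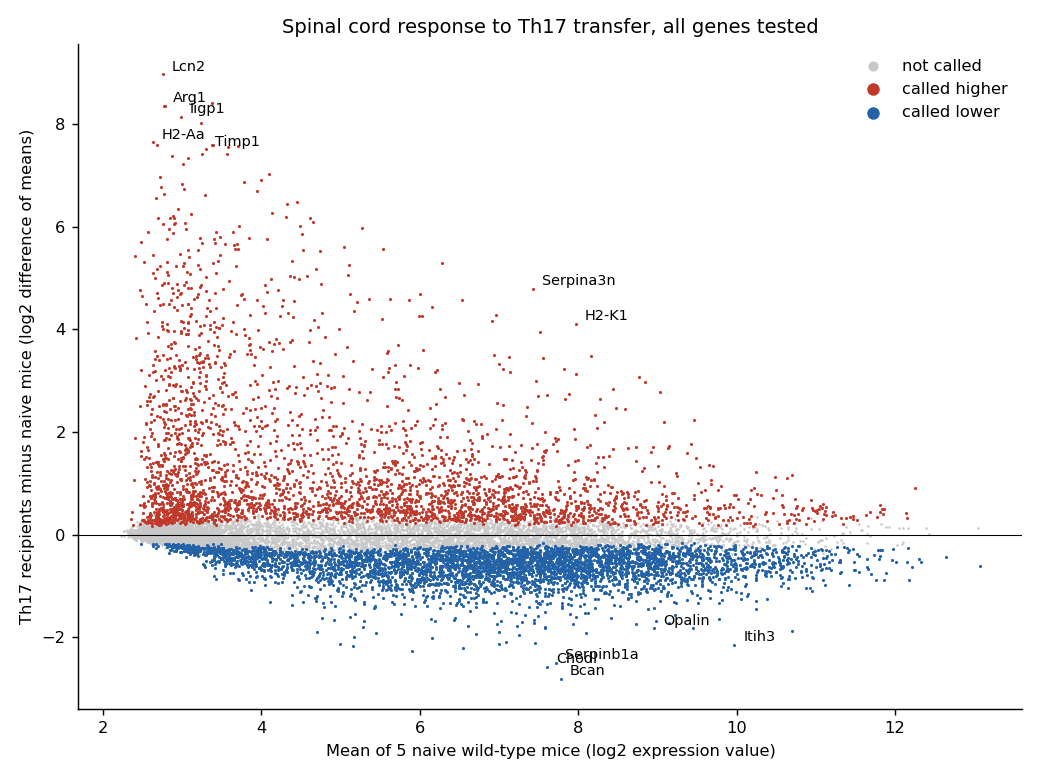
Difference between Th17 recipients and naive mice (vertical axis, log2 difference of means, 5 mice each) against the naive mean (horizontal axis, log2 expression value). Each point is 1 of 17097 genes, red if called higher (3069) and blue if called lower (4367). The largest increases start from a naive mean near background, and the decreases reach no further than −2.81.

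Of the 15 genes with the largest increases, 12 had a naive mean near background. Lcn2, which encodes the iron-binding protein lipocalin-2, was at 2.52, 2.77, 2.97, 2.77 and 2.77 in the 5 naive mice and at 11.81, 11.61, 11.83, 11.63 and 11.76 in the 5 recipients. The groups were far apart and no recipient stood out. Lcn2 rose at least 295-fold (log2 difference 8.97 ± 0.15, SE, adjusted p = 1.26e-25). Arg1, the arginase of alternatively activated macrophages, was at 2.99, 2.79, 2.57, 2.72 and 2.79 in naive mice and 10.97, 11.38, 10.97, 11.09 and 11.24 in recipients, and rose at least 195-fold (log2 difference 8.36 ± 0.16). The chitinase-like macrophage genes Chil3 and Chil4 rose at least 195-fold and at least 307-fold, although their sequences are so alike that the probe sets may read both. The rise of Chil4 rests on the brighter of its probe sets. The other was near background in both groups, at 2.65 in naive mice and 2.78 in recipients (log2 difference 0.13). Ccl6, a chemokine of myeloid cells, rose 190-fold, and Lilrb4a, an inhibitory receptor of myeloid cells, 187-fold. Timp1, an inhibitor of matrix metalloproteinases, rose at least 156-fold (from 3.30 ± 0.19 to 10.81 ± 0.11, SD, n = 5). Saa3, an acute phase protein of macrophages and other cells, went from 2.82, 2.62, 2.84, 2.45 and 2.66 to 10.69, 10.27, 11.08, 10.18 and 9.10. Recipient 5 was the lowest and recipient 3 the highest, and every recipient was above every naive mouse, at least 107-fold on average. Of the other 7 of the 15 largest increases, 4 encode interferon-inducible GTPases (Iigp1, Tgtp1, Ifi47 and Gbp10), 2 belong to antigen presentation by MHC class II (H2-Aa and Cd74), and the last is AW112010, which rose at least 142-fold.

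**Figure D2:**
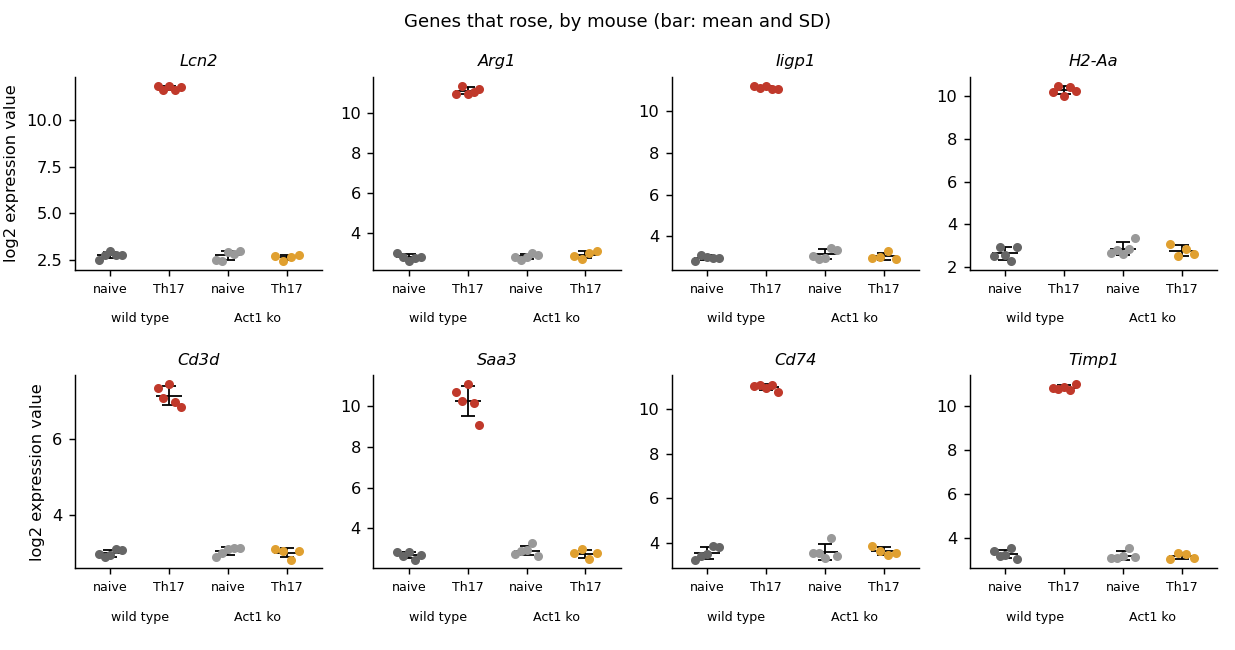
Log2 expression values (vertical axes, each panel with its own range) of 8 genes in every mouse, for naive mice and Th17 recipients of wild-type and Act1 ko genotype. Points are mice and bars are mean and SD. Wild-type recipients lie above all naive mice in each panel, from Cd3d at 6.86 to 7.46 up to Lcn2 at 11.61 to 11.83, while Act1 ko recipients lie among or near the naive values.

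Described list by list, 31 of 51 gene lists had most of their measured members called higher and 11 had most of them called lower. The median difference of a list is to be read beside the median of all genes, −0.05. Counts of called members are to be read beside the 18.0% of all genes called higher and the 25.5% called lower. The median of all genes was −0.31 centred on gene medians, −0.51 on ribosomal protein genes and −0.34 on housekeeping genes. A list median that turns below 0 on such a scale can still lie above that of all genes.

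**Figure D3:**
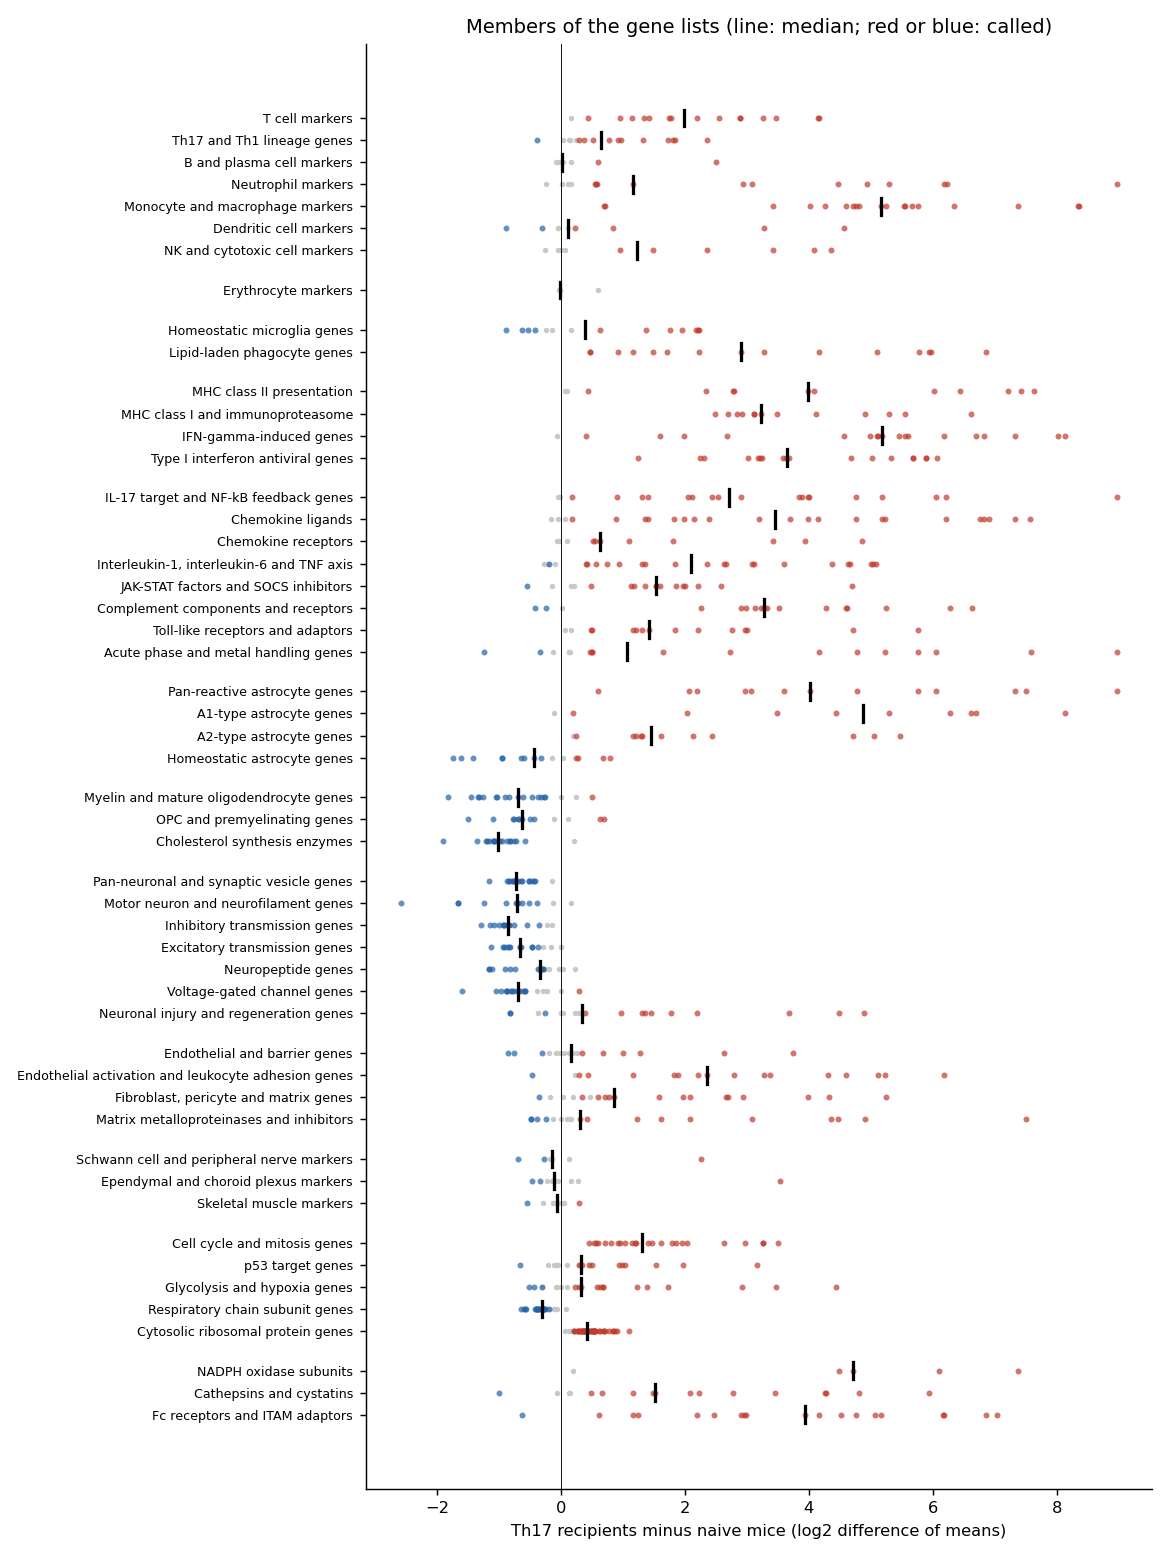
Log2 difference between Th17 recipients and naive mice (horizontal axis) for the measured members of each gene list (rows). Points are genes, red if called higher, blue if called lower and grey if not called, and the vertical line is the median of the list. Medians run from −1.02 for cholesterol synthesis to 5.18 for IFN-gamma-induced genes, and those of the B cell, dendritic cell, microglia, endothelial, neuronal injury, metalloproteinase, p53, glycolysis and ribosomal lists turn below 0 when arrays are centred on ribosomal protein genes. On that scale the median of all genes is −0.51.

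Markers of T cells, the transferred population, rose. Of 16 measured T cell markers 15 rose and 1, the costimulatory receptor Cd27, was not called (median difference 1.98, as throughout on the log2 scale). Cd3d, a subunit of the T cell receptor complex, was at 2.98, 2.88, 2.93, 3.10 and 3.07 in naive mice and at 7.36, 7.10, 7.46, 6.99 and 6.86 in recipients. Naive values lay near background in every mouse and the groups did not overlap. Cd3d rose at least 12.4-fold (log2 difference 4.16 ± 0.11, adjusted p = 3.90e-21), Cd3g, another subunit, at least 10.3-fold, the adhesion receptor Cd2 at least 6.23-fold and the receptor-proximal adaptor Lat at least 8.03-fold. Genes of the Th17 and Th1 lineages moved less. In this list 11 of 16 rose and 1 fell, with a median of 0.65, and 7 of the 16 were near background in both groups. Il1r1, the IL-1 receptor that sustains Th17 cells and is also found on endothelium and astrocytes, rose 5.14-fold (log2 difference 2.36 ± 0.17). Batf, a transcription factor needed for Th17 differentiation, rose at least 2.52-fold, and Cxcr3, the Th1-associated chemokine receptor, at least 1.74-fold, with recipients between 3.67 and 5.17. Ifng, the gene for IFN-γ, was at 2.80, 2.72, 2.53, 2.41 and 2.55 in naive mice and 3.83, 4.22, 3.35, 4.02 and 4.19 in recipients. Recipient 3 was still near background and the other recipients little above it (log2 difference 1.32 ± 0.13, adjusted p = 3.28e-09). Il17a, the gene for IL-17, was near background in both groups, 3.22 ± 0.09 against 3.51 ± 0.36 (difference 0.29 ± 0.12, adjusted p = 0.0464), and this small difference turned to −0.17 when arrays were centred on ribosomal protein genes. Rora, a nuclear receptor of Th17 cells that neurons and astrocytes also express, was called lower by −0.39, but 2 of its 4 other probe sets were higher by 0.12 and 0.11.

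Markers of myeloid cells rose by large amounts. All 19 measured monocyte and macrophage markers rose, by a median of 5.17, and the mean level over the list was 3.46 to 3.51 in naive mice and 8.45 to 8.59 in recipients. Cybb, the catalytic subunit of the phagocyte NADPH oxidase, rose at least 106-fold (log2 difference 7.38 ± 0.14). Ms4a6d, a membrane protein of monocytes and microglia, rose at least 54.4-fold. Of 17 neutrophil markers 12 rose (median 1.16). Fpr2, a receptor for formylated peptides, rose at least 56.9-fold, and the C-type lectin Clec4d at least 46.9-fold. S100a8, a subunit of the alarmin calprotectin, was at 2.71, 3.04, 3.83, 2.88 and 2.65 in naive mice and 7.86, 8.42, 8.46, 7.94 and 8.90 in recipients, with naive mouse 3 the only naive value above background. The 5 neutrophil markers that were not called, named after their values were seen, were Mmp9 and the granule genes Ngp, Ltf, Elane and Mpo, with each of these 4 granule genes near background in both groups (Ngp at 3.21 ± 0.32 and 2.96 ± 0.13, Elane at 2.78 ± 0.07 and 2.79 ± 0.15). Many of the neutrophil markers that rose are also made by monocytes, macrophages or astrocytes.

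Other leukocytes were seen less clearly. Of 10 markers of NK and cytotoxic cells 6 rose, and 3 of the 10 were near background in both groups. Nkg7, a granule protein of cytotoxic lymphocytes, rose at least 5.92-fold, the protease gene Gzma at least 11.2-fold, and the receptor genes Klrd1 and Klrk1 at least 2.72-fold and at least 1.93-fold, whereas Ncr1, Klrb1c, Prf1 and Eomes were not called. Of 8 B cell and plasma cell markers 2 rose, Cd22 at least 3.68-fold and Jchain at least 1.16-fold, a share of 25% against 18.0% of all genes. The list median of 0.02 turned to −0.23 when arrays were centred on gene medians, with 4 called lower. On that scale 11213 of all 17097 genes were called lower, and the median of all genes was −0.31. Ms4a1, Cd79a, Cd79b, Pax5, Blk and Ighm did not pass. All 6 were near background in both groups, so their probe sets show nothing of their level. Of 9 dendritic cell markers 4 rose and 2 fell, and 4 of the 9 were near background in both groups. The median of this list, 0.12, turned to −0.14 when arrays were centred on gene medians. Irf8, a transcription factor of dendritic cells and macrophages, rose 23.6-fold, and the integrin gene Itgax at least 6.31-fold. Flt3, the receptor of dendritic cell growth, fell by 1.85-fold, and Fscn1, an actin-bundling protein that neurons also make, fell by 1.24-fold. The 4 erythrocyte markers did not pass the test, 3 of them near background in both groups. Hba-a1, a haemoglobin chain, was at 8.80 ± 0.79 in naive mice and 9.39 ± 0.43 in recipients (adjusted p = 0.329).

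Antigen presentation rose in both of its arms. Of 13 MHC class II genes 11 rose, with a median of 3.98. H2-Aa, a chain of the class II molecule, was at 2.49, 2.94, 2.57, 2.26 and 2.91 in naive mice and at 10.18, 10.48, 10.03, 10.44 and 10.25 in recipients. No naive mouse was above background, and all recipients were above 10. It rose at least 108-fold (log2 difference 7.64 ± 0.15). Cd74, the invariant chain, rose 172-fold, H2-Ab1 at least 104-fold and H2-Eb1 64.6-fold. All 13 measured genes of the class I pathway and the immunoproteasome rose (median 3.23). H2-K1, a classical class I heavy chain, was already well above background in naive cords and rose 17.3-fold, from 7.97 ± 0.12 to 12.08 ± 0.18. The immunoproteasome subunits Psmb8 and Psmb9 rose at least 83.6-fold and 47.1-fold, and Nlrc5, the transactivator of class I genes, at least 17.9-fold. Probe sets for H2 genes may read related members of the family.

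Genes that interferons induce rose together. Of 19 genes listed as induced by IFN-γ 18 rose, with a median of 5.18, and all 18 measured antiviral genes of the type I interferon response rose, with a median of 3.65. Both interferons induce many genes of either list. Iigp1, a GTPase that attacks the vacuoles of intracellular parasites, was at 2.81, 3.13, 3.00, 2.99 and 2.99 in naive mice and at 11.21, 11.09, 11.18, 11.06 and 11.08 in recipients. The recipients lay within a narrow band far above the naive mice, at least 194-fold on average (adjusted p = 1.47e-28). Cxcl9 and Cxcl10, chemokines that attract T cells bearing Cxcr3, rose at least 78.8-fold and at least 118-fold. The guanylate-binding proteins Gbp2 and Gbp3 rose 104-fold and 36.3-fold. Among antiviral genes, Zbp1, a sensor of Z-form nucleic acid, rose at least 43.7-fold, Ifit1 and Ifit3, which bind viral RNA, 59.2-fold and 25.7-fold, and the chaperone Rtp4 40.3-fold. Gbp4, the exception among the IFN-γ-induced genes, was near background in both groups.

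Promoters of these genes are shown because the members rose together and share short motifs. RefSeq promoters (GRCm38.p6) were at hand for 13605 of the genes tested. The 250 bases before each start were searched on both strands for the core of the interferon-stimulated response element (ISRE), GAAANNGAA, the gamma-activated site (GAS), TTCNNNGAA, and an NF-κB site, GGGNNTTCC. Of the 14 IFN-γ-induced genes with a promoter, 11 held an ISRE core (78.6%) and 7 a GAS core (50%), against 7.51% and 7.59% of all genes. Of the 12 type I antiviral genes with a promoter, 5 held an ISRE core (41.7%) and 2 a GAS core (16.7%). Irf1 and the 2 immunity-related GTPases Irgm1 and Igtp rose 31.6-fold, 48.7-fold and 72.4-fold. Capitals mark the motifs, in the strand of the gene, and in Gbp3 and Irgm1 a pair of ISRE cores overlap.
Irf1, GAS core, chr11:53769909-53769947, + strand: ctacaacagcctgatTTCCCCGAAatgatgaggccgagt
Gbp2, ISRE core, chr3:142620590-142620628, + strand: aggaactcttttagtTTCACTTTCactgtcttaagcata
Gbp3, ISRE cores, chr3:142559985-142560029, + strand: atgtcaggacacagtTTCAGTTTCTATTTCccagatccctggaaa
Irgm1, ISRE cores, chr11:48871421-48871465, − strand: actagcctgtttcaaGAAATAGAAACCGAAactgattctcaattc
Igtp, GAS and ISRE cores, chr11:58199496-58199545, + strand: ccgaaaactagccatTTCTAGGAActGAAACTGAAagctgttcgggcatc
Tgtp1, GAS and ISRE cores, chr11:48992300-48992349, − strand: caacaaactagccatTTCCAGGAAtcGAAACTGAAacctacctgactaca

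The 2 CXCR3 ligands hold an ISRE core and NF-κB cores within the same window, again in capitals. Igtp and Tgtp1 above share the order of GAS and ISRE cores with 2 bases between them. Of the 13 IL-17 target and NF-κB feedback genes with a promoter 5 held an NF-κB core (38.5%), against 6.73% of all genes. Among all genes that rose by at least 2-fold, 12.9% held an ISRE core, and among those that fell by at least 2-fold 6.54% did. A sterol regulatory element, TCACCCCAC, was in 1 of 15 promoters of cholesterol synthesis enzymes (6.67%) and in 0.639% of all. These matches describe the letters of the promoters only.
Cxcl9, ISRE and 2 NF-κB cores, chr5:92328103-92328264, − strand: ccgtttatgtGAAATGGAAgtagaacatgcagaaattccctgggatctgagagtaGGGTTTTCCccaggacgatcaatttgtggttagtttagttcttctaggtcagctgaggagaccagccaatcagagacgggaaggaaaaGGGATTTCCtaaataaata
Cxcl10, ISRE and NF-κB cores, chr5:92348974-92349112, − strand: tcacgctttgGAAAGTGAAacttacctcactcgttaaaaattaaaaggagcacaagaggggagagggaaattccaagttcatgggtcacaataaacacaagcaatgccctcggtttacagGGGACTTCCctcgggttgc

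Of 20 genes listed as IL-17 targets or NF-κB feedback genes 18 rose, with a median of 2.71. Apart from Lcn2, the monocyte chemokines Ccl2 and Ccl7 rose at least 47.6-fold and at least 20.2-fold, and Cebpd, a transcription factor of the acute phase, 27.1-fold. The 2 that were not called, named after their values were seen, were Ccl20 (3.02 ± 0.13 against 2.96 ± 0.12) and Csf3 (2.64 ± 0.10 against 2.63 ± 0.08), a chemokine for Ccr6-bearing cells and the neutrophil growth factor, both near background. Of 24 chemokine ligands 21 rose (median 3.45), with Ccl5, which attracts T cells and monocytes, up at least 63-fold. The 3 others were Ccl20, Cxcl14 and Cx3cl1, and the last 2 of these were above background in naive cords (Cxcl14 at 7.81 ± 0.13 and 7.88 ± 0.27, Cx3cl1 at 8.15 ± 0.06 and 7.99 ± 0.20). Each has a second probe set above background, which was lower in recipients by −0.57 for Cxcl14 and by −0.495 for Cx3cl1. Of 11 chemokine receptors 8 rose, with a median of 0.62, and 5 of the 11 were near background in both groups. Ccr1 of myeloid cells rose at least 16.9-fold, Cxcr6 of effector T cells at least 7.91-fold and Ccr2 of inflammatory monocytes at least 6.58-fold.

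In the IL-1, IL-6 and TNF axis 20 of 24 genes rose and 1 fell (median 2.10). Casp4, the inflammatory caspase that senses lipopolysaccharide in the cytosol, rose at least 25.4-fold (log2 difference 5.09 ± 0.11), the inflammasome adaptor Pycard 32.7-fold, Il18bp, a soluble inhibitor of IL-18, 25.3-fold, and the TNF receptor gene Tnfrsf1b at least 19.8-fold. Lifr, the receptor of leukaemia inhibitory factor, was lower by −0.20 (adjusted p = 0.0446). In the JAK-STAT list 13 of 17 rose and 1 fell (median 1.53). Socs3, the feedback inhibitor of IL-6 receptors, rose at least 16.8-fold, and Cish, an inhibitor of STAT5, at least 3.28-fold. The factors Stat2 and Stat3 rose 6.02-fold and 2.89-fold, whereas the inhibitor Socs5 fell 1.46-fold.

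Of 17 complement genes 14 rose and 2 fell (median 3.28). Cfb of the alternative pathway rose at least 58.9-fold, the protease C1ra of the classical pathway at least 16.5-fold, its inhibitor Serping1 77.3-fold and the anaphylatoxin receptor C3ar1 at least 30.4-fold. The 2 that fell, Cd59a and Cd55, encode regulators that protect host cells. Cd59a went from 8.81 ± 0.08 to 8.57 ± 0.10. Cd55 went from 3.54 ± 0.25, barely above the background level, to 3.12 ± 0.13, near background. With quantile normalization only 1 complement gene was called lower. Of 15 Toll-like receptor genes 13 rose (median 1.42), among them Tlr2, which senses bacterial lipoproteins, at least 50.2-fold, its partner Tlr1 at least 4.45-fold, the endosomal RNA sensor Tlr7 at least 5.19-fold and the co-receptor Cd14 26.4-fold. Tlr5 and Tlr9 were not called.

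Acute phase and metal handling genes rose in 12 of 18 cases and fell in 2 (median 1.07). Cp, the copper-bearing ferroxidase, rose 54.2-fold, and Slc11a1, which moves iron out of the phagosome, at least 27.4-fold. Slc40a1, the iron exporter ferroportin, fell 2.36-fold, from 5.54 ± 0.15 to 4.30 ± 0.28, and the transferrin receptor Tfrc fell 1.27-fold. Of 5 NADPH oxidase subunits 4 rose, with Cyba up 68.5-fold, Rac2 at least 24.2-fold and Ncf4 at least 16.5-fold, and Nox4, an isoform outside phagocytes, was not called. Of 19 Fc receptors and ITAM adaptors 18 rose (median 3.93), led by the inhibitory IgG receptor Fcgr2b (131-fold) and the lectins Clec7a (116-fold) and Clec4e (at least 45-fold), which sense fungal and mycobacterial sugars. Fcrls, a receptor typical of microglia, fell 1.54-fold. Of 17 cathepsins and cystatins 13 rose (median 1.52). Cst7, an inhibitor of cathepsins, rose at least 44.7-fold, Ctsw of cytotoxic cells at least 17.9-fold, and Ctsh and Ctsc 19.2-fold and 19.4-fold. Ctsf fell 2.01-fold, from 7.28 ± 0.14 to 6.27 ± 0.18.

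Genes that mark resting microglia, the resident macrophages of the cord, were mixed. Of 14 measured, 7 rose (50%, against 18.0% of all genes) and 4 fell (28.6%, near the 25.5% of all genes). Their median of 0.39 turned to −0.07 when arrays were centred on ribosomal protein genes. Those that rose included Csf1r, the growth factor receptor of all macrophages (4.51-fold), Olfml3 (4.66-fold), the selectin ligand Selplg, also on leukocytes (4.61-fold), and the purine receptor P2ry13 (3.39-fold). Those that fell were P2ry12, the ADP receptor by which microglia extend processes towards injury, Fcrls, Gpr34 and the transcription factor Sall1. P2ry12 was at 7.18, 6.91, 6.85, 6.71 and 6.98 in naive mice and between 5.91 and 6.35 in recipients. Recipient 5 was the highest recipient, and the groups did not overlap (log2 difference −0.89 ± 0.12, adjusted p = 4.97e-07). Tmem119, a microglial membrane protein chosen after its values were seen, went from 5.46, 4.75, 4.94, 4.66 and 5.26 to 7.08, 7.24, 7.14, 6.53 and 6.88. It thus rose 3.89-fold while P2ry12 fell 1.85-fold. All 15 genes of lipid-laden phagocytes rose (median 2.91), with Gpnmb, a glycoprotein of phagocytes filled with lipid, up 54.7-fold, and the signalling adaptor Tyrobp up 18-fold from an already clear level of 6.92 ± 0.13.

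Astrocyte genes of the reactive state rose and many of the resting state fell. All 13 genes listed as shared by reactive astrocytes rose (median 4.02). Serpina3n, a secreted protease inhibitor, was at 7.41, 7.22, 7.50, 7.53 and 7.49 in naive mice and 12.29, 12.23, 12.29, 12.13 and 12.13 in recipients. Its values differed little within either group, and it rose 27.5-fold (log2 difference 4.78 ± 0.11). Gfap, the intermediate filament by which astrocytes are stained and chosen here after its values were seen, rose 1.51-fold, from 11.09 ± 0.13 to 11.68 ± 0.14, the smallest change of this list, and was no longer called when arrays were centred on ribosomal protein genes. Of 10 genes of the A1 set, named for neuroinflammation, 9 rose (median 4.87). Of 12 genes of the A2 set, named for ischaemia, 11 rose (median 1.46), with the crosslinking enzyme Tgm1 up at least 30.3-fold, the pattern recognition protein Ptx3 at least 20.3-fold and the prostaglandin enzyme Ptgs2 at least 4.47-fold. Several of these genes, such as Cxcl10, Psmb8, Gbp2 and Cd14, are also expressed by infiltrating cells.

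Of 15 homeostatic astrocyte genes 9 fell and 4 were called higher (median −0.43). Slc7a10, a transporter of D-serine, fell 3.37-fold (from 8.74 ± 0.15 to 6.99 ± 0.39), the receptor Fgfr3 3.08-fold, the glypican Gpc5 2.68-fold, and Gjb6, the gap junction protein connexin-30, 1.93-fold. Aldh1l1, a folate enzyme that marks astrocytes, was higher by 0.80 and the glutamate transporter Slc1a2 by 0.68, each by 1 probe set, the other probe set of either gene being near background in both groups. The transcription factor Sox9 was higher by 0.28, a difference that turned to −0.18 when arrays were centred on ribosomal protein genes. Slc1a3 was near background in both groups (2.54 ± 0.14 and 2.78 ± 0.22) and its probe set shows nothing of its level. The water channel Aqp4 and Ndrg2 were not called, with Aqp4 at 10.76 ± 0.10 and 10.80 ± 0.07.

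Genes of oligodendrocytes, the myelin-forming cells, fell together. Of 19 measured genes of myelin and mature oligodendrocytes 16 fell and 1 rose, with a median of −0.70. Opalin, a membrane protein of myelin paranodes, was at 8.95, 8.85, 8.74, 9.13 and 9.14 in naive mice and at 7.06, 6.94, 7.05, 7.01 and 7.63 in recipients. Recipient 5 kept the highest value of the recipients and was still below every naive mouse. Opalin fell 3.54-fold (log2 difference −1.82 ± 0.13, adjusted p = 9.93e-12). The enzymes of myelin galactolipids Ugt8a and Fa2h fell 2.74-fold and 2.52-fold, and Gjc3, a connexin of oligodendrocytes, 2.49-fold. Mog, the antigen of the transferred cells, fell 2.06-fold (from 9.07 ± 0.21 to 8.03 ± 0.11) and Mbp, a main protein of compact myelin, 1.53-fold, both chosen after their values were seen. Trf, the iron carrier transferrin that oligodendrocytes make, rose 1.41-fold, but was no longer called when arrays were centred on ribosomal protein or housekeeping genes. In the OPC and premyelinating list 9 of 13 fell and 2 rose (median −0.63). Gpr17, a receptor of cells about to differentiate, was at 7.65, 7.55, 7.40, 7.75 and 7.56 in naive mice and 5.92, 6.11, 5.75, 6.34 and 6.28 in recipients, and fell 2.83-fold without overlap. Enpp6, a marker of newly forming oligodendrocytes, fell 2.14-fold, and the lineage factor Olig1 1.63-fold. The proteoglycan Vcan rose 1.63-fold and the Wnt effector Tcf7l2 1.55-fold, neither of them called when arrays were centred on ribosomal protein genes. Pdgfra, the defining receptor of OPCs, had a probe set near background in both groups (2.67 ± 0.07 and 2.79 ± 0.08).

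Cholesterol synthesis, which supplies the lipid of myelin, held the lowest median of all lists. Of 18 enzymes 17 fell, with a median of −1.02. Lss, which closes the sterol rings, was at 7.13, 6.94, 7.08, 6.74 and 7.11 in naive mice and at 4.76, 5.19, 4.66, 5.22 and 5.67 in recipients, and fell 3.73-fold (log2 difference −1.90 ± 0.14, adjusted p = 1.27e-11). Dhcr7, the last enzyme of the pathway, was at 7.61, 7.53, 7.63, 7.66 and 7.58 in naive mice and 5.97, 6.15, 6.16, 5.93 and 7.03 in recipients. Naive mice varied little, whereas recipient 5 lay well above the other recipients. Tm7sf2 fell 2.28-fold and Msmo1 2.24-fold. The mean of the 18 enzymes was 7.66 to 7.85 in naive mice, 6.53 to 6.79 in recipients 1 to 4 and 7.46 in recipient 5, and without that recipient the median difference was −1.22. Ebp was not called (7.89 ± 0.10 against 8.09 ± 0.25).

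**Figure D4:**
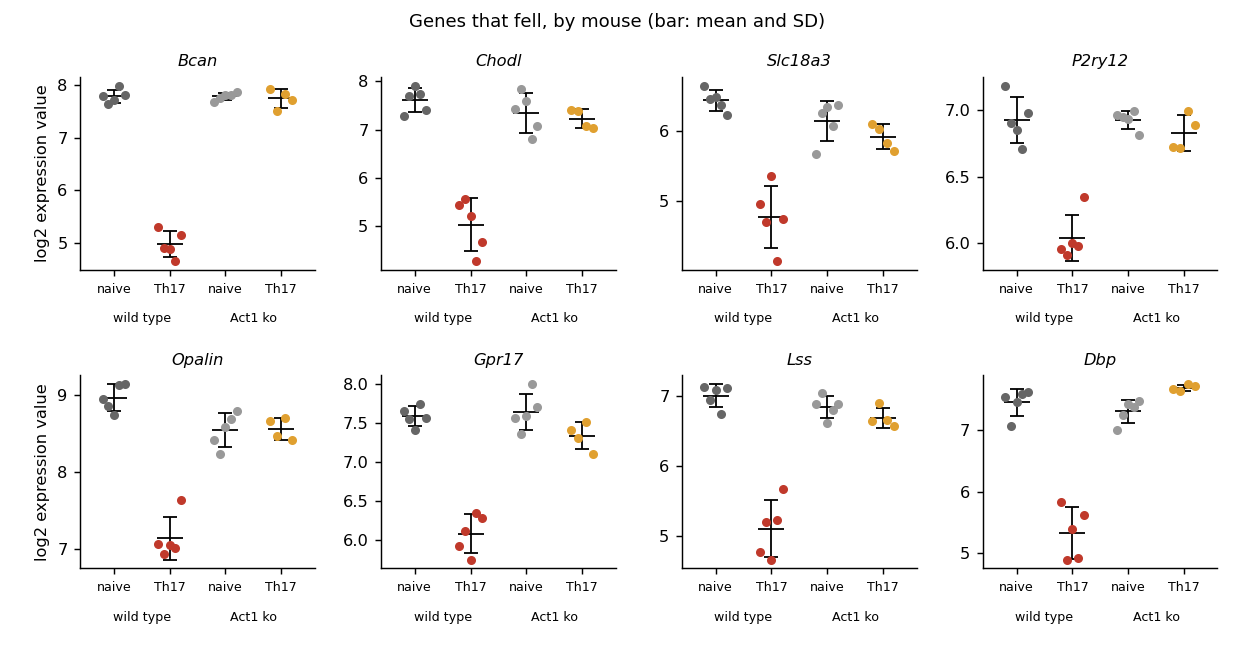
Log2 expression values (vertical axes, each panel with its own range, not starting at 0) of 8 genes that fell, in every mouse, for naive mice and Th17 recipients of wild-type and Act1 ko genotype. Points are mice and bars are mean and SD. Wild-type recipients lie below all naive wild-type mice in each panel, and recipient 5 is the highest recipient for P2ry12 (6.35), Opalin (7.63) and Lss (5.67).

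Neuronal genes fell, most of them by less than 2-fold. Of 19 pan-neuronal and synaptic vesicle genes 18 fell and none rose, with a median of −0.73. Rab3a and Rab3c, GTPases of vesicle release, fell 1.74-fold and 1.79-fold, the vesicle protein Sv2b 1.82-fold and the fusion protein Vamp1 1.66-fold. The mean of the list was 9.78 to 9.84 in naive mice and 9.10 to 9.19 in recipients. Of 16 genes of inhibitory transmission 14 fell (median −0.86), with the GABA receptor subunits Gabra5 and Gabrb2 down 2.23-fold and 1.79-fold, and the transporters of inhibitory neurons Slc32a1 and Slc6a5 down 1.79-fold and 2.01-fold. Of 16 genes of excitatory transmission 12 fell (median −0.66). The AMPA receptor subunits Gria4 and Gria1 fell 2.18-fold and 1.92-fold, their auxiliary subunit Cacng2 1.79-fold, and the vesicular glutamate transporter Slc17a6 1.58-fold.

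The motor neuron list held the deepest single decrease among the neuronal lists. Of 13 motor neuron and neurofilament genes 11 fell (median −0.70). Chodl, a membrane protein of fast motor neurons, was at 7.29, 7.70, 7.91, 7.75 and 7.42 in naive mice and at 5.44, 5.56, 5.21, 4.28 and 4.68 in recipients. Recipients 4 and 5 were the lowest and no recipient reached the naive range (log2 difference −2.58 ± 0.25, adjusted p = 2.67e-09). Slc18a3, which loads acetylcholine into vesicles, was at 6.64, 6.45, 6.49, 6.36 and 6.23 and 4.95, 4.69, 5.35, 4.13 and 4.73, and fell 3.17-fold. The nuclear receptor gene Esrrg fell 2.37-fold, and the intermediate filament Ina 1.63-fold. Of 20 voltage-gated channel genes 15 fell (median −0.69). Scn8a, the sodium channel of the nodes of Ranvier, fell 3.04-fold (from 7.98 ± 0.17 to 6.37 ± 0.35), Scn1a 1.85-fold, the potassium channel Kcna2 of the axon beside the node 1.7-fold, and the calcium channel subunit Cacnb4 1.83-fold. Scn9a, the only one called higher, was near background in both groups. Of 18 neuropeptide genes 10 fell (median −0.35), among them Sst (2.17-fold), Nmu (2.23-fold), the granule protein Chga (1.88-fold) and Npy (1.77-fold).

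Of 20 genes of neuronal injury and regeneration 10 rose (50%, against 18.0% of all genes). Lower calls numbered 3 (15%, against 25.5% of all genes). Their median of 0.33 turned to −0.13 when arrays were centred on ribosomal protein genes. Atf3, a transcription factor of axotomized neurons, rose at least 9.37-fold. Sprr1a, a protein of regenerating axons, rose at least 16.3-fold and varied widely, with recipients at 8.01, 7.63, 8.06, 7.67 and 6.39. Anxa1 and Lgals1, which leukocytes also make, rose at least 19.7-fold and 3.41-fold. Gap43 and Stmn4, proteins of growth cones, fell 1.2-fold and 1.77-fold.

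Genes of activated vessels rose. Of 17 genes of endothelial activation and leukocyte adhesion 15 rose (median 2.36). Icam1, the ligand of leukocyte integrins on vessels, rose at least 25.2-fold, and its receptor chains Itgb2 and Itgal 73-fold and at least 26.5-fold. Itgb7, an integrin chain of lymphocytes, rose at least 8.49-fold, whereas the adhesion molecule Alcam fell 1.38-fold. Of 16 endothelial and barrier genes 6 rose and 3 fell, and their median of 0.16 turned to −0.10 with arrays centred on gene medians. Vwf, the platelet-binding factor of endothelium, was at 3.89, 4.54, 4.25, 3.98 and 3.82 in naive mice and at 7.94, 7.61, 7.69, 7.92 and 8.06 in recipients, and rose 13.5-fold. Ly6c1, found on endothelium and on monocytes, rose 6.2-fold and the glucose transporter Slc2a1 1.6-fold, which was no longer called when arrays were centred on ribosomal protein genes. The organic anion transporters of the blood-brain barrier Slco1c1 and Slco1a4 fell 1.81-fold and 1.7-fold.

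Matrix genes rose in 14 of 19 cases (median 0.86). Fn1, fibronectin, rose 38.2-fold, the collagen Col3a1 19.9-fold, the proteoglycan Dcn 6.45-fold and the peptidase Anpep, also on myeloid cells, at least 9.73-fold. Rgs5, a marker of pericytes, fell 1.27-fold. Of 19 metalloproteinases and inhibitors 10 rose and 4 fell, and their median of 0.31 turned to −0.15 with arrays centred on ribosomal protein genes. The macrophage elastase Mmp12 rose at least 18.5-fold, the leukocyte sheddase Adam8 at least 18.3-fold and the membrane-bound Mmp14 8.45-fold. Timp2 and Timp3, inhibitors of these enzymes, fell 1.4-fold and 1.19-fold while Timp1 rose, but 1 of 4 other probe sets of Timp2 was higher by 0.61.

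Markers of Schwann cells, muscle, and ependymal and choroid plexus cells were mostly not called as deposited. When arrays were centred on gene medians, 5 of 7, 8 of 10 and 6 of 10 were called lower. On that scale 11213 of all 17097 genes were called lower too, so these counts show no loss particular to these cells. Of the 10 muscle markers, 8 were near background in both groups. Of 7 Schwann cell and nerve root markers 1 rose and 2 fell, with a list mean of 5.17 to 5.30 in naive mice and 5.32 to 5.39 in recipients. Of 10 skeletal muscle markers 1 was called higher and 1 lower, with means of 3.63 to 3.67 and 3.48 to 3.76. Of 10 ependymal and choroid plexus markers 1 rose and 2 fell, with means of 3.74 to 4.05 and 4.06 to 4.28. The one that rose in each of the first and last lists has other sources, Egr2 in lymphocytes and myeloid cells (at least 2.84-fold) and Rarres2, a chemoattractant, in several cell types (11.6-fold).

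Genes of cell division rose throughout. All 24 measured cell cycle and mitosis genes rose (median 1.30). Mki67, the antigen of dividing cells, was at 3.19, 3.00, 3.32, 3.19 and 3.41 in naive mice and at 6.69, 6.94, 6.72, 6.93 and 6.32 in recipients. No naive mouse exceeded background, and recipient 5 was the lowest recipient (adjusted p = 4.82e-14). Cdk1 rose at least 6.01-fold, the ubiquitin enzyme Ube2c of mitotic exit at least 6.22-fold and the replication helicase subunit Mcm6 4.09-fold. Of 18 p53 target genes 10 rose and 1 fell, and their median of 0.32 turned to −0.14 with arrays centred on ribosomal protein genes. Cdkn1a, the p21 inhibitor of the cell cycle, was at 7.04, 6.61, 6.62, 6.98 and 6.98 in naive mice and 8.55, 8.71, 8.81, 8.85 and 9.16 in recipients (log2 difference 1.97 ± 0.20). The death receptor Fas rose at least 7.3-fold, Btg2 2.91-fold and the cyclin Ccng1 2.05-fold, whereas the RNA-binding protein Zmat3 fell 1.58-fold.

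Of 21 glycolysis and hypoxia genes 13 rose and 3 fell (median 0.32). With arrays centred on ribosomal protein genes their median was −0.14, with 6 higher and 9 lower. On that scale the median of all 17097 genes was −0.51, with 1623 higher and 13501 lower. Among hexokinases Hk2 and Hk3 rose 21.8-fold and at least 10.5-fold, while Hk1, the main form of brain, fell 1.24-fold, although a second probe set of Hk1 differed by −0.04. Among phosphofructokinases Pfkl rose 2.62-fold and Pfkm fell 1.43-fold. Lactate dehydrogenase Ldha rose 3.31-fold, and the brain aldolase Aldoc fell 1.35-fold. Of 34 respiratory chain subunits 23 fell and none rose (median −0.30), with the complex I subunits Ndufs1, Ndufa4 and Ndufb3 down 1.56-fold, 1.52-fold and 1.5-fold and Sdha of complex II down 1.48-fold. Of 50 cytosolic ribosomal protein genes 43 rose and none fell (median 0.42, 0.16 with 23 called higher when arrays were centred on gene medians, 0.13 with 20 on housekeeping genes, and by construction near 0 when centred on these genes themselves). Rplp0, a protein of the ribosomal stalk, was at 10.70, 10.62, 10.53, 10.54 and 10.76 in naive mice and at 11.78, 11.60, 11.81, 11.68 and 11.80 in recipients (log2 difference 1.10 ± 0.07). Rps18 rose 1.82-fold, Rpl32 1.62-fold and Rpl22 1.79-fold, although a second probe set of Rpl22 was lower by −0.33.

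The 15 largest decreases ran from −2.81 to −1.94 on the log2 scale. Bcan, the matrix proteoglycan brevican made by astrocytes and OPCs, was at 7.78, 7.64, 7.71, 7.98 and 7.81 in naive mice and at 5.30, 4.91, 4.88, 4.65 and 5.15 in recipients. The groups were well apart, and Bcan fell 6.99-fold (log2 difference −2.81 ± 0.18, adjusted p = 8.80e-13). Serpinb1a, an inhibitor of leukocyte proteases, fell 5.66-fold (from 7.73 ± 0.12 to 5.23 ± 0.24), and Itih3, a protein that binds hyaluronan, 4.43-fold with recipients more scattered (9.97 ± 0.11 to 7.82 ± 0.59). Npb, the gene of neuropeptide B, fell 4.83-fold, and Calcb, a calcitonin gene-related peptide, 3.88-fold. Entpd2, an enzyme that degrades extracellular ATP, fell 4.35-fold, the sodium pump-interacting protein Nkain4 4.25-fold and the membrane protein Clmn 3.83-fold. Cdkn1c, an inhibitor of the cell cycle, fell at least 3.1-fold, the carbonic anhydrase Car3 at least 2.78-fold and the membrane protein Igsf1 at least 3.13-fold, each to a level near background. Tlcd1 fell 4.65-fold, the kinase Sgk2 4.04-fold and Dbp, a transcription factor of the circadian clock, 4.34-fold.

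The same transfer into Act1 ko mice asks whether these differences appear where cells cannot respond to IL-17 through Act1. Here 4 recipients were compared with 5 naive mice of the same genotype, all labelled Act1 ko. No gene was called by limma (0% of those tested, smallest adjusted p = 0.0704), with 576 genes higher and 494 lower at an unadjusted p under 0.05, and between 0 and 8 calls under the alternatives tried. The 1251 genes that rose by at least 2-fold in wild-type recipients had a median difference of 2.07 there and of 0.01 in Act1 ko mice. Of these, 57 were higher and 28 lower in Act1 ko recipients at an unadjusted p under 0.05, and 1 rose by 2-fold, the kinase Sgk1 (1.08). The 398 genes that fell by at least 2-fold had a median of −1.15 in wild-type and 0.01 in Act1 ko mice. In the test of the difference between genotypes, 32.0% of all genes were called, 2365 with a more positive and 3114 with a more negative response in wild-type mice. The wild-type arrays that chose the 2-fold genes enter this test too, so their share of its calls is not given. T cell markers had a median difference of −0.03 in Act1 ko mice, against 1.98 in wild type, and monocyte and macrophage markers of 0.03 against 5.17. Cd3d was at 3.11, 3.05, 2.82 and 3.05 and Lcn2 at 2.70, 2.44, 2.65 and 2.80 in the 4 Act1 ko recipients, all below 3.52. The p53 targets had a median of 0.08 there, and Cdkn1a in these irradiated mice was at 7.29, 6.83, 7.29 and 7.92 (0.15 above naive Act1 ko mice, not called). The probe set of Traf3ip2, the Act1 gene, was at 4.29 ± 0.20 in naive wild-type mice (SD, n = 5) and at 5.56 ± 0.24 in the naive Act1 ko group (SD, n = 5), so it does not show the loss of the gene. Where in the gene its probes lie relative to the deletion is not given in the sources used here.

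**Figure D5:**
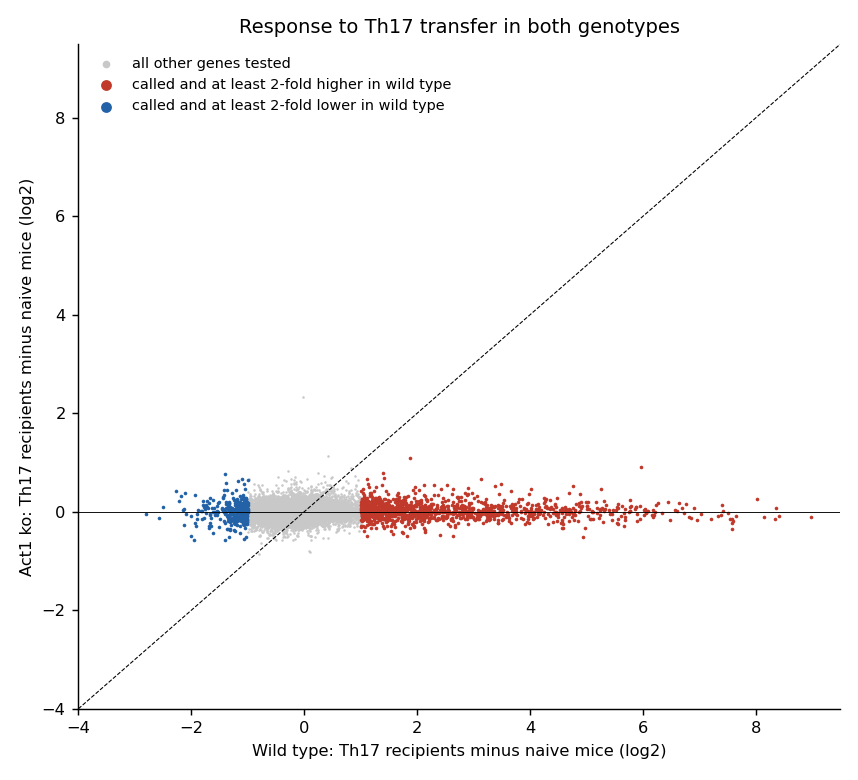
Difference between Th17 recipients and naive mice in Act1 ko (vertical axis) against that in wild-type mice (horizontal axis), both as log2 difference of means. Each point is a gene, red if it rose (1251) and blue if it fell (398) by at least 2-fold in wild type, and the broken line marks equal responses. The coloured genes lie along 0 on the vertical axis, with medians of 0.01.

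The Th17 recipients were also compared with the 5 recipients of Th1 cells. The code in each title holds a number, read here as an array position. It was 3 or 7 for the Th1 arrays and 1, 2, 4, 5 or 6 for the Th17 arrays. The kind of cell and this number therefore cannot be told apart in this comparison. Th17 recipients were higher than Th1 recipients in 327 genes (1.91%) and lower in 186 (1.09%). The Th17 arrays enter this comparison and that with naive mice, so counts of calls among the 2-fold genes are no independent test. The genes below fell against naive mice and were picked for being lower than in Th1 recipients too. Entpd2 was lower than in Th1 recipients by −1.34 (adjusted p = 1.48e-06), Npb by −1.13 (0.00156), Bcan by −1.02 (0.0012), Dbp by −0.92 (0.00469) and Fgfr3 by −0.85 (0.000377). For Igf2, a growth factor of meninges and vessels chosen after its values were seen, the difference was −1.14 (0.000142). Th1 recipients 4 and 5 correlated with the other 3 at 0.991 to 0.9933, and those 3 among themselves at 0.9932 to 0.9949. Without Th1 recipients 4 and 5, Bcan, Entpd2, Npb, Fgfr3 and Igf2 were still called (adjusted p = 0.00749, 3.41e-05, 0.0434, 0.00205 and 0.00298) and Dbp not (0.118). Nkain4 and Clmn, lower than in all Th1 recipients by −0.62 and −0.61 (adjusted p = 0.00947 and 0.00546), also lost the call (0.215 and 0.116). Of the genes at least 2-fold lower than in naive mice, 47 were called lower than in Th1 recipients and 5 higher. Without Th1 recipients 4 and 5 these counts were 11 and 4. Opalin, Lss, Chodl and Mki67 differed from Th1 recipients by 0.22, 0.31, −0.33 and 0.61, none of them called.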

How the data were processed

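RNA of whole spinal cords was hybridised to HT MG-430 PM arrays, 1 mouse per array. The authors deposited log2 expression values summarised by robust multi-array average (RMA), which background-corrects and quantile-normalizes the arrays together, so that a shift of most genes in 1 direction is partly removed. These deposited log2 values were used as they stand. Of 45118 probe sets 28898 had 1 gene symbol in the platform annotation, 551 several and 15669 none listed. For each of 17097 genes the brightest of its probe sets, on average over the 24 arrays, was taken.

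Samples were grouped by their titles. Linear models with group terms were fitted to all 24 arrays with limma 3.58.1 in R 4.3.3, with moderated two-sided tests and Benjamini-Hochberg adjustment over all genes, and an adjusted p under 0.05 was called. The methods state age-matched littermates between groups, but which mice shared a litter is not given in the sources used here, so p-values measure the spread between these mice. Named genes were the 15 largest changes in each direction without overlap, and in each of 51 lists the 4 or fewer members of lowest adjusted p plus those called against the list, with a further few stated as chosen after their values were seen. The members, lists and comparisons were chosen with earlier results of these data known. Alternatives varied the probe set, the scaling, the arrays, the test and the blocks. The procedure was tested on simulated data. The number of arrays limits the precision. No 2 of the 10 compared arrays held the same values (smallest mean absolute difference 0.146). Replicate numbers were not used to pair the mice.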

Additional observations from a re-analysis of the deposited data

Results flagged for a closer look

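In each group of 5 mice, a value was noted where its gap to the nearest other mouse exceeded 0.71 of the range of the group. By chance alone about 1 in 20 groups would be noted. This was so in 29 of 488 gene and group pairs and in 5 of 104 pairs of a list mean and a group.

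Among Th17 recipients, recipient 5 stood apart most often. It was higher than the others for the oligodendrocyte gene Opalin (7.63), the sterol enzyme Dhcr7 (7.03), the microglial receptor P2ry12 (6.35) and the mean of the cholesterol synthesis enzymes (7.46). It also stood apart for C3ar1 (7.87), Cd14 (8.60), Ms4a6d (8.78), Socs3 (7.90), Sprr1a (6.39), Sdha (10.146) and Timp2 (9.90). Recipient 1 stood apart for Lilrb4a (10.897), Slco1c1 (6.85) and the mean of the endothelial activation and leukocyte adhesion genes (7.01), recipient 2 for Ctsc (11.375) and Hk1 (8.52), recipient 3 for Gabrb2 (6.23) and Timp3 (7.62), and recipient 4 for Entpd2 (4.31), Scn1a (8.62) and the mean of the A1-type astrocyte genes (9.22).

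Among naive mice, mouse 1 stood apart for Enpp6 (6.91), mouse 2 for Cd59a (8.67), Dbp (7.07), Mmp12 (2.60) and the mean of the endothelial and barrier genes (6.21), mouse 3 for Aldoc (12.887), Tlr2 (3.12) and the mean of the JAK-STAT factors and SOCS inhibitors (4.83), mouse 4 for C1ra (3.27), Cish (3.65), Cxcl14 (8.04) and Slc1a3 (2.78), and mouse 5 for Clec4e (2.81).

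The response to Th17 transfer differed between genotypes in limma's test of the difference, with 2365 genes more positive and 3114 more negative in wild-type than in Act1 ko mice.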

How the results depend on the processing

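With 1 array left out in turn, 2927 to 3036 genes were higher, 4040 to 4276 lower, 1232 to 1272 at least 2-fold higher and 374 to 427 at least 2-fold lower, 30 to 31 lists were mostly higher and 10 to 11 mostly lower, 0 to 7 genes were called in Act1 ko mice, 5225 to 5505 in the difference of the response between genotypes and 375 to 540 for Th17 against Th1 recipients. Scaling moved the counts of higher and lower genes most. Centred on the median of the genes of each array, 11213 genes were lower, 1167 of them at least 2-fold, and 9104 differed between genotypes. With quantile normalization 623 were at least 2-fold lower. Centred on ribosomal protein genes, 1623 were higher, 13501 lower, 2293 at least 2-fold lower, 17 lists mostly lower and 11872 genes different between genotypes. Centred on housekeeping genes, 1991 were higher, 11422 lower and 1338 at least 2-fold lower. The count of genes at least 2-fold higher stayed within 1.5 times of the main count under all 28 alternatives. In Act1 ko mice, 1 gene was called with the mean of all probe sets, with a variance trend and with a replicate block, 2 centred on housekeeping genes, 3 with the array letter as a term and 8 with array weights. Between Th17 and Th1 recipients 282 genes were called with the compared arrays alone and 320 without Th1 recipients 4 and 5, an alternative chosen after seeing the data. The cause of these shifts was not tested.

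Some directions turned. Centred on gene medians, ribosomal protein genes and housekeeping genes in that order, the median was −0.23, −0.44 and −0.27 for B and plasma cell markers, −0.14, −0.34 and −0.17 for dendritic cell markers and −0.10, −0.30 and −0.13 for endothelial genes, and the difference was −0.22, −0.42 and −0.25 for Aqp4, −0.24, −0.45 and −0.28 for Elane and −0.0086, −0.21 and −0.042 for Slc1a3. Centred on ribosomal protein genes alone, medians turned for microglia (−0.065), neuronal injury (−0.13), metalloproteinase (−0.15), p53 (−0.14), glycolysis (−0.14) and ribosomal protein genes themselves (−0.041), and differences for Cxcl14 (−0.39), Pdgfra (−0.35), Il17a (−0.17, and −0.0015 with housekeeping genes) and Sox9 (−0.18, and −0.0083 with housekeeping genes). With the mean of all probe sets Cxcl14 was at −0.25, and without s, x and a type probe sets Rora was at 0.12 and Slc1a2 at −0.076 by a probe set near background in both groups.

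With the replicate number as a replicate block, 3092 genes were higher and 4406 lower. Deviations of mice with the same number correlated at −0.09, −0.04, 0.12, 0.00 and 0.15, and 1 of 5 correlated best with its own number. Mice with the same number in the title code, read as an array position, correlated at −0.101, 0.153, −0.003, 0.081 and 0.317. So few correlations cannot show whether mice were handled in pairs, and the main fit held no pairing. Signal near background limits what can be said of genes below 3.52, for which a fold change is a bound.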

Other observations

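Of 19 measured genes of the circadian clock, a list chosen after values were seen, limma called 3 higher and 10 lower in the recipients of Th17 cells, and 6 were not called. Over all genes 18.0% were called higher and 25.5% lower, so the 3 higher calls are no more than the share of all genes. Dbp, a transcription factor driven by the clock, was at 7.54, 7.07, 7.46, 7.58 and 7.61 in the 5 naive mice and at 5.83, 4.90, 5.39, 4.92 and 5.63 in the 5 recipients, without overlap (log2 difference −2.12 ± 0.19, SE). Its relatives Hlf and Tef, which bind the same sites, were lower by −1.32 and −0.48. The repressors Per3, Ciart and Cry2 were lower by −1.07, −0.80 and −0.57, and the nuclear receptor Nr1d2 by −1.05. Nfil3, which opposes Dbp at these sites, was higher by 1.57, the repressor Bhlhe40 by 0.90 and Per1 by 0.71. Clock, Rorb and Csnk1e were lower by −0.48, −0.56 and −0.34. Those not called were Arntl (−0.27), Npas2 (−0.06), Per2 (0.07), Cry1 (0.06), Bhlhe41 (−0.06) and Csnk1d (−0.07). In Act1 ko mice the differences of the 19 genes lay between −0.48 and 0.39, without a call. The hour of the day at which cords were collected is not given in the sources used here, and its part in these differences was not tested.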
